A study of Rattus norvegicus with 53 samples.

Results

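Cited2 is 1 of 32576 genes measured in whole eyes of heterogeneous stock (HS) rats, and it was taken as the single deposited gene whose position ends at 12823363 on chromosome 1 of the rat genome build Rnor_6.0 (identifier ENSRNOG00000056940). HS rats are an outbred population bred from inbred founder strains. Each of the 51 libraries held polyA RNA from 1 eye of a different rat, frozen at death and freed of extraocular muscle, and all 51 eyes form 1 group. Some rats of the whole study had been through behavioural tests with self-administered nicotine. The sources do not say whether the rats of these eyes were among them, nor give the sex and age of each rat. Another 2 eyes, which the authors removed because no DNA genotype matched them, are not analysed here. The libraries summed to between 9109084 and 42146827 expected counts, with a median of 16193478. Levels are given as counts scaled to the same total in every eye (CPM, counts per 1000000), which are not divided by transcript length, and differences on the scale of log2 of CPM plus 1.

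Cited2 encodes a transcriptional co-regulator that does not bind DNA itself. It binds the co-activators CBP and EP300 on the surface that the hypoxia-inducible factor (HIF) also uses, and so restrains the response to low oxygen, and it acts as a co-activator with other transcription factors. In mice, loss of Cited2 disturbs the formation of the lens and of the hyaloid vessels of the eye, along with the heart, the adrenal gland and the neural tube. Many HIF binding sites hold the core ACGTG, so the promoter of the gene is shown here with each match to this core, on either strand, in capitals. The sequence is the 250 bases before the start of Cited2 in RefSeq on the build GRCr8, chromosome 1, 14132053 to 14132302, plus strand, and the expression values are placed on Rnor_6.0, so these coordinates are not those of the files.
Cited2: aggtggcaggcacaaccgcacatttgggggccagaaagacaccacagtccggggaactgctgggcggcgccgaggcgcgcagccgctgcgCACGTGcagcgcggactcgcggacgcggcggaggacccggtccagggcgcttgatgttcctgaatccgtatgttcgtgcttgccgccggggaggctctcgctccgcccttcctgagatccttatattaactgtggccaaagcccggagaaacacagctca
The capitals are 2 overlapping matches, 1 on each strand, that begin at positions -160 and -159 from the start. This core is found in 16.6% of the 33469 rat promoters of the same length in that table. G and C made up 65.2% of this window, against a median of 51.2% over all of them. A match of letters is a description and shows no binding.

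Cited2 was well expressed in every eye and varied little between eyes. Its level ran from 109 CPM in the lowest eye, and 113 CPM in the next, through a median of 144 CPM to 183 CPM in the next to highest and 192 CPM in the highest eye, a 1.77-fold range. The mean was 147 ± 20.3 CPM (SD, n = 51). The middle part of the eyes lay between 130 and 162 CPM, so no eye stood far from the rest. By median level Cited2 ranked 1145 among all genes, above 91.7% of the genes whose median reached 1 CPM, on a scale that favours long transcripts. Between 1257 and 6722 expected counts per eye stood behind these values, with a median of 2331. Counting error alone gives an SD of 0.03 on the log2 scale at the median eye, and the observed SD was 0.20. Counting error therefore equals 2.28% of the variance between eyes. Of the 200 genes nearest to Cited2 in level, 17% had a smaller SD, and the median SD of these genes was 0.29, so Cited2 was among the steadier genes of its level.

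The tissue label was checked against the few marker genes that could be named. Guca1b, a guanylate cyclase activator of photoreceptors, was present in every eye at 359.8 to 898 CPM, and Glul, glutamine synthetase of Muller glia, at 1810 to 3636 CPM. Dsc3, a desmosomal cadherin of surface epithelia, was at 259 to 781 CPM, and the epithelial cadherin Cdh1 at 109.8 to 281.5 CPM. Lum, a gene of the corneal stroma and sclera, was low, at 0.261 to 15.9 CPM with a median of 2.82. The blood marker Hbb was at 3.71 to 88.05 CPM. None of the 27 lens fibre markers could be named in the sources used here, so the lens content of the eyes was not checked by marker.

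The level of Cited2 was set beside ENSRNOG00000047175, a gene at position 10438444 on chromosome 20 that the sources used here do not pair with a name, because this gene was nearly lost in a few eyes. In 3 eyes its log2 level was below 8, at 3.22, 4.65 and 5.51, or 8.33, 24.04 and 44.7 CPM. In the other 48 eyes it ran from 13.6 through a median of 15.3 to 15.97, which is 12470 to 64120 CPM. No eye lay between 5.51 and 13.6, so the eyes form 2 separate clusters in this gene, and thresholds of 7 and 9 pick the same 3 eyes. Together 48 genes were at least 8-fold lower by median in these 3 eyes. These genes held 0.0237% to 0.0373% of all counts in the 3 eyes, against 4.0% to 21.1%, with a median of 12%, in the 48 others.

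Cited2 remained well expressed in the 3 eyes that had nearly lost ENSRNOG00000047175. It stood at 173, 178 and 192 CPM there, against 109 to 183 CPM, with a median of 141 CPM, in the 48 others. The 3 eyes ranked 1, 3 and 6 from the highest of all 51, and 3 of the 48 others lay above the lowest of the 3, so the groups overlap. The ratio of the medians was 1.26, or 0.33 on the log2 scale. The eyes were split by a measured value, so no test was made. A difference upward of at least this size was seen in 32.1% of the 13843 other genes whose median reached 1 CPM, and the median difference over all of these genes was 0.17, so most genes were higher in the 3 eyes on this scale. By comparison, 0.166% of genes had all 3 eyes above all 48 and 1.03% had all 3 below. With median-of-ratios scaling, which sets the typical gene equal between eyes, the difference of Cited2 fell to 0.10. It was then at 146 to 174 scaled counts in the 3 eyes, with a median of 161, against 110 to 182, with a median of 150, in the 48 others. In RNA of a whole eye, fewer cells of a type and less RNA per cell cannot be told apart.

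**Figure D1:**
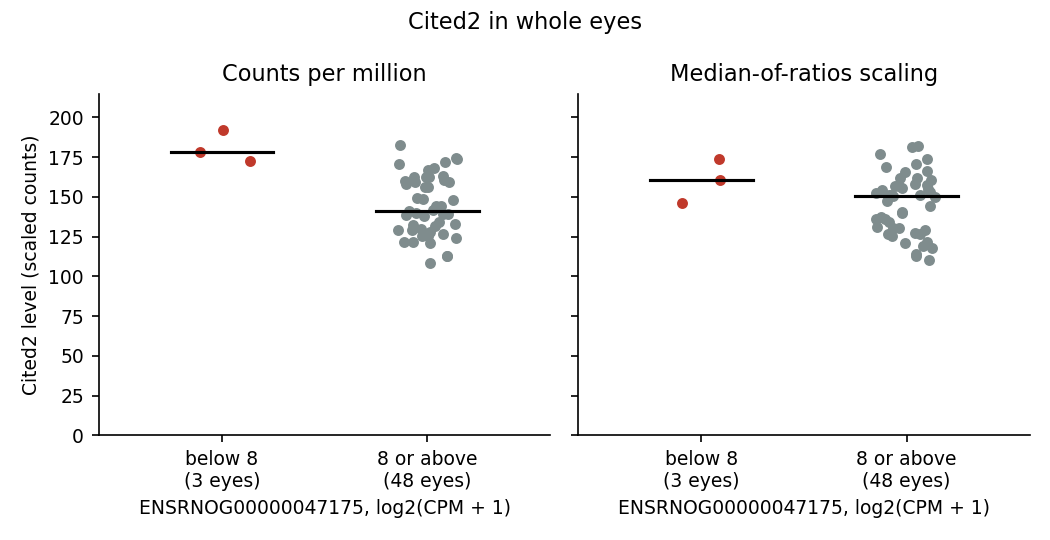
Cited2 level (y-axis, scaled counts) in 3 eyes with ENSRNOG00000047175 below 8 and 48 eyes at 8 or above, in CPM (left) and with median-of-ratios scaling (right). Each point is an eye and each line a median, 178 against 141 CPM at left and 161 against 150 at right.

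Within the 48 eyes, Cited2 was not seen to move with ENSRNOG00000047175. Over these eyes Pearson's r was -0.07 (permutation p = 0.62, or 0.775 when adjusted for the 5 relations examined), and Spearman's rho was -0.05 (permutation p = 0.729, or 0.911 adjusted). Dropping the 2 eyes most extreme in that gene gave r = -0.04. The sign depended on the scaling. With median-of-ratios scaling r was 0.18 (permutation p = 0.217). With scaling that leaves out the 48 genes at least 8-fold lower in the 3 eyes, r was 0.22 (permutation p = 0.127). The labels carry tags with several prefixes, and r was -0.17 in the 10 eyes of less common prefixes and 0.04 in the 38 eyes of the main prefix. The other 4 relations, with the total of counts, the number of genes above 0, the share of counts from the mitochondrial genome and, in the 48 eyes, the share of the 10 highest genes, had r between -0.01 and 0.11. Their adjusted p-values were 0.775 or more, so no relation to depth or to these shares was detected. The 11 eyes whose label the authors corrected averaged 140 ± 22.2 CPM of Cited2, against 148 ± 19.6 CPM in the 40 eyes that kept their label (SD). The difference was -0.09 on the log2 scale (two-sided permutation p = 0.181). The 12 eyes of the less common tag prefixes averaged 145 ± 23.1 CPM, against 147 ± 19.6 CPM in the 39 others, a difference of -0.03 (two-sided permutation p = 0.675). The sources do not say what a tag prefix stands for.

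A large part of the variation of Cited2 lay on 1 shared pattern of expression. Of its variance between eyes, 52.4% lay on the first 5 principal components of expression, against a median of 37.1% over the genes above 0 in any eye, and 72.2% lay on 20 components, against a median of 70.8%. These medians include weakly expressed genes, and no median over genes of like level was made. The third component alone held 34.4% of the variance of Cited2 and 6.42% of all variance, while the first component held 0.159% of Cited2 and 18.5% of all variance. The largest share on 1 component was not computed for other genes, so 34.4% has no such value beside it. On the third component the 3 eyes that had nearly lost ENSRNOG00000047175 lay beyond all 48 others, at 0.216 to 0.351 against -0.272 to 0.202. Cited2 and this component had r = 0.57 over the 51 eyes, given as a description, since the component was computed from these same values.

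**Figure D2:**
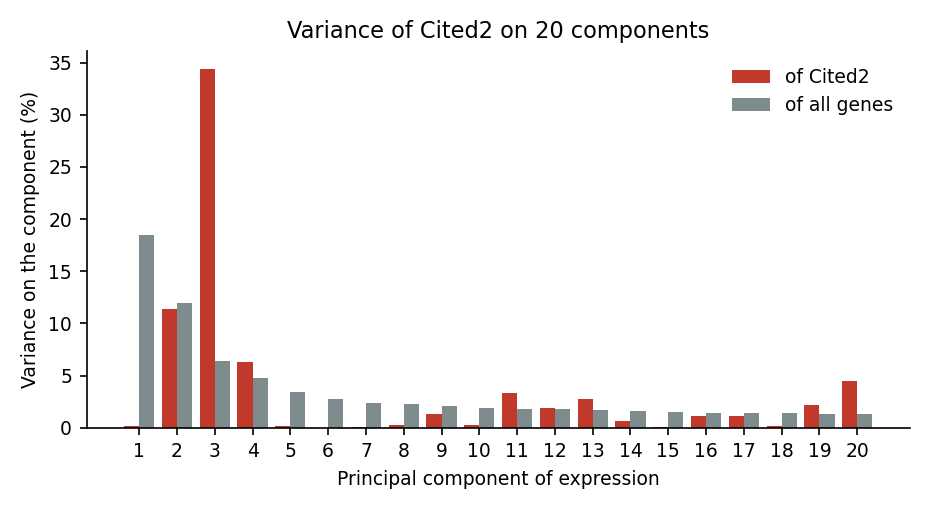
Share of variance (y-axis, percent) on each of 20 principal components of expression (x-axis), for Cited2 and for all genes above 0 in any eye. Cited2 has its largest share, 34.4%, on the third component and 0.159% on the first.

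The genes that vary with Cited2 across eyes were sought among 13843 genes whose median reached 1 CPM. In the 51 eyes, 791 genes rose with Cited2 and 192 fell as it rose (moderated test of limma, Benjamini-Hochberg adjusted p under 0.05). These are 5.71% and 1.39% of the genes tested, 7.1% together. Pearson's r ran from -0.62 to 0.68 with a median of 0.04, and the weakest relation that was called had an r of 0.38 in size. The genes that rose had a median level of 37.9 CPM and those that fell 43.7 CPM, against 22.8 CPM for all genes tested, so both were well expressed genes. Among the 48 genes that were at least 8-fold lower in the 3 eyes, 25 were called lower and 0 higher. These 48 genes were picked for being low in the 3 eyes, where Cited2 was high. Their direction was thus favoured by the choice and is no separate result. None of the 15 mitochondrial genome genes tested was called.

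The count and the direction of these calls depend on the eyes and on the scaling. Without the 3 eyes, 353 genes rose (2.55% of those tested) and 123 fell (0.889%), 3.44% together, and 323 and 61 of these were also called in the 51 eyes. Among the 39 eyes of the main tag prefix 0 genes were called by limma, with 1456 at an unadjusted p under 0.05, and among the 40 eyes that kept their label 0 were called, with 2142 at an unadjusted p under 0.05. With fewer eyes the same r is less readily called, and 0 calls do not show that the relations are absent there. The reason for the 0 calls was not tested. For ENSRNOG00000020696 r was 0.68 in the 51 eyes, 0.65 in the 39 and 0.66 in the 40 (limma adjusted p = 0.0576 in the 40). For Rhob it was 0.66, 0.55 and 0.58, and for Tnip1 0.50, 0.32 and 0.46. With 5 components as covariates, the third among them, 0 genes were called and 649 had an unadjusted p under 0.05. With median-of-ratios scaling 701 genes rose (5.06%) and 868 fell (6.27%), 11.3% together, so 44.7% of the calls were upward there, against 80.5% in CPM, and 482 of the genes that rose and 81 of those that fell were called in both. Leaving out 1 eye at a time gave 349 to 1010 genes that rose and 72 to 257 that fell, with the fewest of each when the eye lowest in Cited2, at 109 CPM, was left out.

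**Figure D3:**
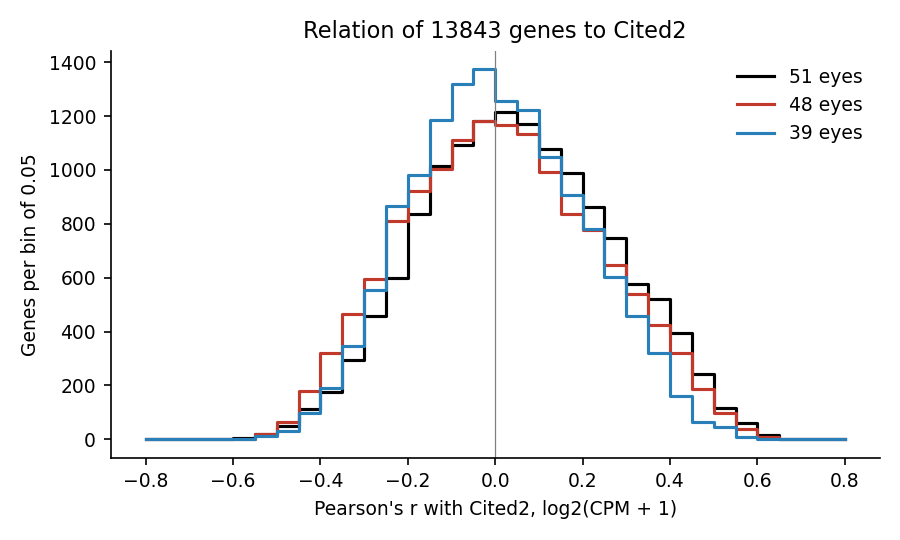
Number of genes (y-axis, per bin of r) by Pearson's r with Cited2 (x-axis) for 13843 genes, in all 51 eyes, in 48 eyes without the 3 that had nearly lost ENSRNOG00000047175, and in 39 eyes of 1 tag prefix. The median r is 0.04 in 51 eyes and 0.01 in 48.

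Names could be given to 705 of the 13843 genes tested, almost all of them because the study lists them as cis-eQTL genes, so the genes named here are a selected part of those that vary with Cited2. Of the 705, 40 rose with Cited2 and 8 fell, beside 791 (5.71%) and 192 (1.39%) of all 13843 genes tested. The genes most like Cited2 over all had no name in these sources. ENSRNOG00000020696, at 13.1 to 31.4 CPM, had r = 0.68 with Cited2, and ENSRNOG00000027238, at 8.22 to 25.6 CPM, had r = 0.68 (limma adjusted p = 0.00122 each). Most opposite were ENSRNOG00000009176, with r = -0.62 (adjusted p = 0.0014), and ENSRNOG00000013707, with r = -0.60 (adjusted p = 0.00236). In the 48 eyes these had r = 0.63, 0.64, -0.54 and -0.54, each with an adjusted p under 0.05. With median-of-ratios scaling ENSRNOG00000009176 was no longer called (r = -0.34, adjusted p = 0.0831), while the other 3 were, with r = 0.66, 0.59 and -0.59.

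Rhob, Arpc4 and Septin5 stood first among the named genes that rose with Cited2. Rhob, a small GTPase of the actin cytoskeleton and of endosomes, ran from 51.2 through a median of 74.9 to 113 CPM. It rose by 0.77 (SE 0.13) log2 units per log2 unit of Cited2, with Pearson's r = 0.66 (limma adjusted p = 0.00122, permutation p = 1e-05, the smallest possible) and Spearman's rho = 0.62 (permutation p = 2e-05). In the 3 eyes Rhob was at 89.6, 92.4 and 96.9 CPM, against 51.2 to 113 CPM in the others, and without them r was 0.62. In the 12 eyes of less common tag prefixes r was 0.92 and in the 39 eyes of the main prefix 0.55, and dropping the 2 eyes most extreme in Rhob gave 0.64.

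Arpc4, a subunit of the Arp2/3 complex that nucleates actin branches, ran from 49.2 through 70.5 to 110 CPM. Its r with Cited2 was 0.59 (limma adjusted p = 0.00279, permutation p = 1e-05) and rho 0.56 (permutation p = 2e-05). In the 3 eyes it was at 72.9, 97.2 and 110 CPM, against 49.2 to 100.1 CPM in the others, and without them r was 0.56. Septin5, a filament-forming GTPase, ran from 136 through 177 to 307 CPM, with r = 0.58 (limma adjusted p = 0.00308). Septin5 stood at 230.3, 274 and 307 CPM in the 3 eyes, against 136 to 288 CPM in the others, and without them r was 0.51. All 3 of these genes thus moved with Cited2 in the 48 eyes too, at an adjusted p of 0.0117, 0.0159 and 0.0266.

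Ldhb and Pygb, both enzymes of sugar metabolism, came next. Ldhb, which encodes a subunit of lactate dehydrogenase, ran from 121 through 186 to 295 CPM, with r = 0.57 (limma adjusted p = 0.00368, permutation p = 5e-05). Pygb, the brain form of glycogen phosphorylase, ran from 106 through 160 to 238 CPM, with r = 0.54 (limma adjusted p = 0.00652, permutation p = 5e-05). In the 48 eyes r was 0.53 for Ldhb and 0.56 for Pygb, so neither relation rested on the 3 eyes.

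The other 5 named genes that led the positive relations were of mixed roles. Ifi27, an interferon-induced gene, had the widest range of these, from 15.7 through 57.1 to 104 CPM, and rose by 1.40 (SE 0.31) log2 units per log2 unit of Cited2 (r = 0.53, limma adjusted p = 0.00478). Jpt1 had r = 0.53 and Smim24, a small membrane protein gene, r = 0.52. Cadm4, a cell adhesion molecule, had r = 0.51 and Tnip1, a restrainer of NF-kB signalling, r = 0.50. The limma adjusted p of these 4 ran from 0.00652 to 0.0103. Each of the 10 leading named genes was also called without the 3 eyes, with an adjusted p of at most 0.0497. With 20 components as covariates Tnip1 had r = -0.06 (limma unadjusted p = 0.727), so no relation was seen there. With median-of-ratios scaling Smim24 was no longer called (adjusted p = 0.0522).

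**Figure D4:**
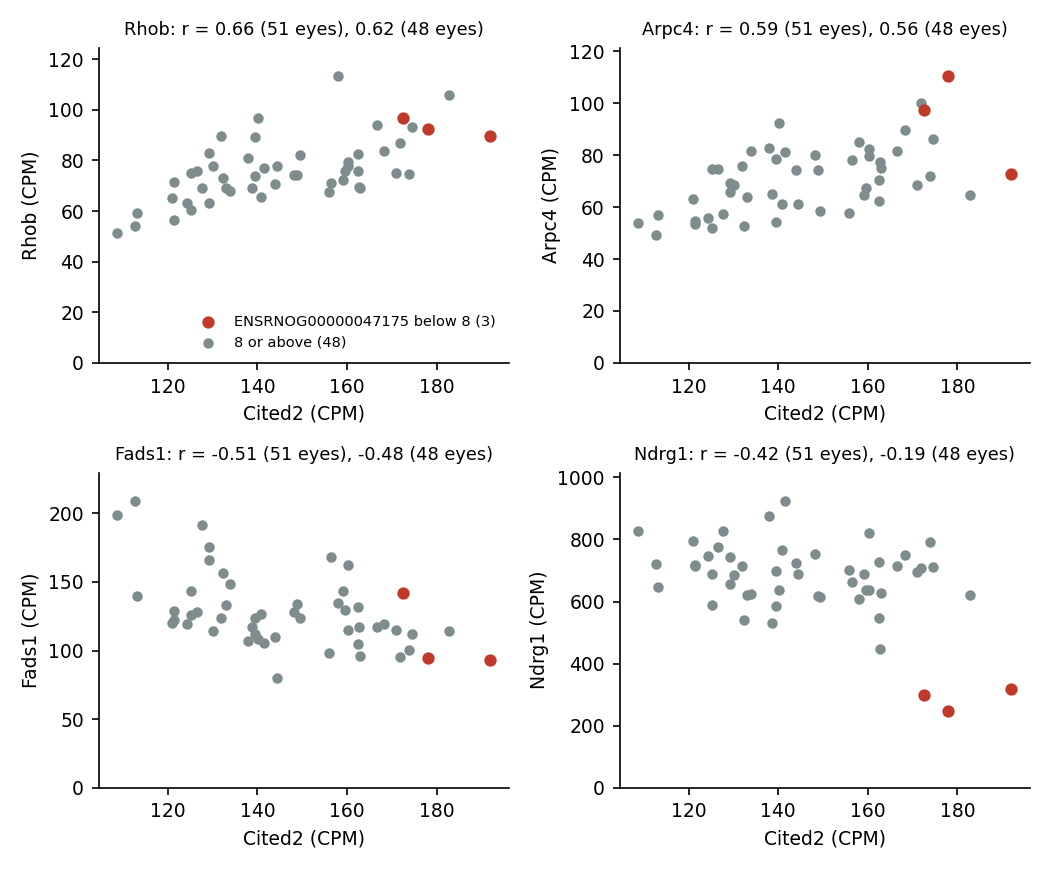
Levels of Rhob, Arpc4, Fads1 and Ndrg1 (y-axes, CPM) against Cited2 (x-axis, CPM) in 51 eyes. Red points are the 3 eyes that had nearly lost ENSRNOG00000047175, which lie within the range of the others for Rhob and Fads1 and below all of them for Ndrg1, at 247 to 317 CPM.

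Among the 8 named genes that fell as Cited2 rose, 3 were also called in the 48 eyes, where r was negative for each of the 8. Fads1, a fatty acid desaturase, ran from 79.8 through 123 to 209 CPM, with Pearson's r = -0.51 (limma adjusted p = 0.00927, permutation p = 8e-05) and rho = -0.48 (permutation p = 0.00044). In the 3 eyes Fads1 was at 93.0, 94.8 and 142 CPM, against 79.8 to 209 CPM in the others, and without them r was -0.48 (adjusted p = 0.0295). Mapk10, a stress-activated kinase of neurons, ran from 24.3 through 37.4 to 60.9 CPM and had r = -0.47 over 51 eyes (limma adjusted p = 0.0189) and -0.45 over 48 (adjusted p = 0.0458). Rap1gds1, which acts on small GTPases, ran from 74.6 through 134 to 216 CPM and had r = -0.46 (limma adjusted p = 0.0219) and -0.51 over 48 (adjusted p = 0.0223). Ncoa7, a nuclear receptor co-activator gene, had r = -0.47 (limma adjusted p = 0.0204), and -0.44 over 48 eyes, where it just missed the threshold (adjusted p = 0.0532). Without the 2 eyes most extreme in Cited2, Fads1 (adjusted p = 0.0584), Mapk10 (0.108) and Rap1gds1 (0.0606) were no longer called, with r between -0.37 and -0.42, while Ncoa7 was (0.0485). With median-of-ratios scaling all 4 were called, with r from -0.48 to -0.60.

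The other 4 named genes that fell were low in the 3 eyes, and they were no longer called without those eyes or with another scaling. Sfrp1, a secreted Wnt antagonist, was at 58.9, 74.6 and 81.1 CPM in the 3 eyes, against 111 to 334 CPM in the others. Ndrg1, a stress-responsive gene induced by low oxygen, was at 247, 300.4 and 317 CPM there, against 447 to 923 CPM, and Sh3bgr at 4.94, 7.85 and 11.7 CPM, against 14.6 to 146 CPM. For these genes the 3 eyes did not overlap the 48 others, which was so in this direction for 1.03% of the 13843 genes tested. Genes picked for falling with Cited2 were favoured to be low in these eyes, where Cited2 was high. Mboat1, a membrane-bound acyltransferase gene, was at 14.2, 15.4 and 16.3 CPM, against 14.6 to 49.6 CPM. Within the 48 eyes r with Cited2 was -0.32 for Sfrp1, -0.19 for Ndrg1, -0.19 for Sh3bgr and -0.30 for Mboat1, with adjusted p-values of 0.166 to 0.503. With median-of-ratios scaling and the 3 eyes kept, r was -0.25 for Sfrp1, -0.14 for Ndrg1, -0.06 for Sh3bgr and -0.28 for Mboat1, with adjusted p-values of 0.164 to 0.801.

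For each of the 18 leading named genes r was farther from 0 in the 12 eyes of the less common tag prefixes, at 0.52 to 0.92 in size, than in the 39 eyes of the main prefix, at 0.28 to 0.55. The leading genes without a name did not all do so. For ENSRNOG00000013707 r was -0.57 in the 12 eyes and -0.63 in the 39. It was 0.80 and 0.65 for ENSRNOG00000020696, 0.80 and 0.64 for ENSRNOG00000027238, and -0.82 and -0.52 for ENSRNOG00000009176. Among the 12 eyes are 2 of the 3 that had nearly lost ENSRNOG00000047175. The 18 genes were picked for a large r over eyes that include the 12, and r varies more widely in 12 eyes than in 39. The share of all genes with a larger r in the 12 eyes was not computed, and the difference between the prefixes was not tested. None of the 18 was called in the 39 eyes, with adjusted p-values of 0.268 to 0.515.

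Genes of the HIF pathway, which Cited2 is known to restrain, gave no common direction among the few that could be named. All the lists used here, of pathways and of cell type markers together, hold 273 genes besides Cited2. Of these 27 could be named and 25 were tested. Of the 25, 2 rose with Cited2 and 1 fell, against 5.71% and 1.39% of all genes. The 2 that rose were Ddit4, a hypoxia response gene, and Elf3, an epithelial marker outside the HIF pathway. Of the 12 listed partners and regulators of the HIF pathway, only 1 could be named and tested. The other members of the CITED family, CBP and EP300 could not be named. Arnt2, a partner of the HIF proteins in binding DNA, ran from 27.99 through 48.1 to 74.8 CPM and had r = 0.08 with Cited2 (limma adjusted p = 0.808).

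Of 26 hypoxia response genes 5 could be named and tested, with 1 called higher, 1 lower and 3 in neither direction. Their median r was 0.06, against 0.04 over all genes. Ddit4, a stress-induced restrainer of mTOR signalling, rose with Cited2 (r = 0.41, limma adjusted p = 0.0458) from 52.9 through 73.6 to 113 CPM. It was at 91.8, 96.9 and 113 CPM in the 3 eyes, against 52.9 to 111 CPM in the others, and without them r was 0.30 (adjusted p = 0.199). Ndrg1 fell, as given above. Eno1, a glycolytic enzyme at 1175 to 2398 CPM, had r = 0.40 (limma adjusted p = 0.0782). Adm, which encodes the vasodilator adrenomedullin, was at 0 to 4.37 CPM with r = 0.06 (limma adjusted p = 0.848).

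Of the 15 cell type markers of the eye that were tested, 1 was called, a share near the 7.1% of all genes, and none of the 5 listed genes of development and hormone response was. Six3, a homeobox gene of eye and lens development and the only one of 27 such genes that could be named, ran from 31.3 through 45.8 to 86.9 CPM and had r = 0.24 (limma adjusted p = 0.302). Of the glucocorticoid and FOXO responsive genes, Sgk1 had r = 0.10, Errfi1 r = -0.01, Cdkn1a r = 0.30 and Glul r = 0.27, with limma adjusted p-values of 0.154 or more. Elf3, an epithelial transcription factor, was the cell type marker called (r = 0.43, limma adjusted p = 0.0302). It was at 205, 354 and 356 CPM in the 3 eyes, against 83.1 to 263 CPM in the others. Without the 3 eyes r was 0.32 (adjusted p = 0.156). With 5 and 20 components as covariates it turned to -0.44 and -0.49, and neither was called (limma adjusted p = 0.922 and 0.959). Cdh1, the epithelial cadherin, had r = 0.36 (limma adjusted p = 0.0855), and its level was 238, 255 and 282 CPM in the 3 eyes, against 109.8 to 261 CPM in the others. The other epithelial markers Dsc3, Dsc2 and Lamb3 had r between 0.17 and 0.24. The photoreceptor marker Guca1b had r = 0.09, the glial marker Clu -0.12, the pigment genes Tyr and Rab38 -0.23 and 0.08, the stromal genes Lum and Fmod 0.02 and -0.26, the blood marker Hbb 0.03, and the myeloid markers Cd68 and Cd14 -0.01 and 0.16. Each of these had a limma adjusted p of 0.235 or more. The part of cell content in the relations of Cited2 was not tested.

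The genes nearest to Cited2 on the chromosome were too few to set against the 7.1% of all genes called. Within 0.5 Mb of its start, the window in which the study mapped cis-eQTLs, lie the starts of 10 other genes, of which 5 were at 0 in every eye, 1 had a median under 1 CPM and 4 were tested, none with a name in these sources. All 4 lie at higher coordinates than Cited2. The nearest, 92.4 kb away, ran from 0 through 1.24 to 6.07 CPM and had r = -0.29 (limma adjusted p = 0.185, permutation p = 0.0405). The next, 227 kb away, was at 33.3 to 90.4 CPM with r = 0.10, and those at 353 kb and 389 kb had r = 0.24 and 0.16. Of the 4, 0 were called by limma (adjusted p-values of 0.185 to 0.719), with 1 at an unadjusted p under 0.05. Cited2 itself takes its name from the study's list of genes with a cis-eQTL in these eyes. Its association with genotype was not analysed here, and the part of genotype in its variation was not tested.

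**Figure D5:**
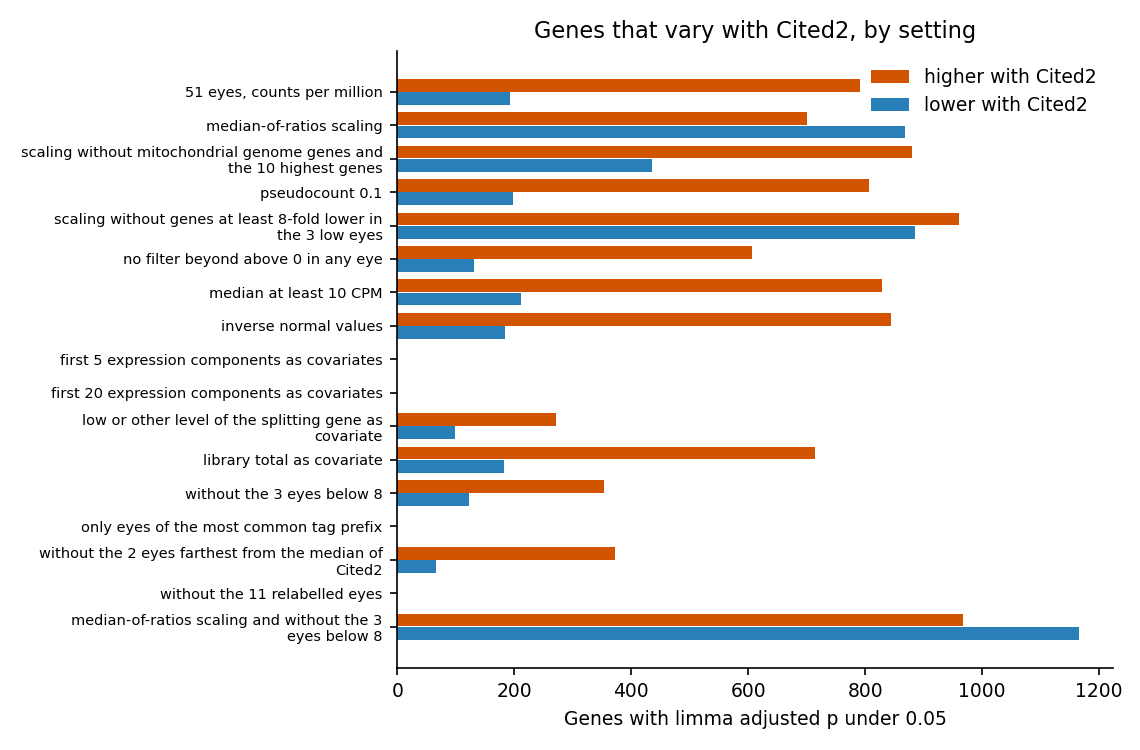
Number of genes with a limma adjusted p under 0.05 (x-axis) that rise (orange) or fall (blue) with Cited2, by processing setting (y-axis). The counts are 791 and 192 in 51 eyes with CPM, 701 and 868 with median-of-ratios scaling, and 0 in the 39 eyes of 1 tag prefix, in the 40 eyes that kept their label, and with 5 or 20 components as covariates.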

How the data were processed

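The authors sequenced polyA RNA of the eyes as paired-end reads, aligned it to Rnor_6.0 with STAR and matched it to DNA genotypes with GATK ASEReadCounter. The 51 eyes remained after 2 with no matching genotype were removed. The authors deposited log2 of the RSEM expected count plus 1, with no scaling between eyes. The absence of scaling was read from the values: after reversing the log2, 89.8% of entries from 0.5 to 50 were whole numbers to within 0.01. No source used here gives the tool versions or the annotation. RSEM divides fragments that fit several genes, which can move the values of similar genes.

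Each eye was scaled to a sum of 1000000 (CPM), and log2 was taken after adding 1. A total of 3 counts is 0.329 CPM in the shallowest eye, for counting error only. Symbols were assigned by matching start positions, 778 from the study's list of cis-eQTL genes and 6, within 500 bp, from its table of candidate genes. The relation of each gene to Cited2 was fitted with limma 3.58.1 in R 4.3.3, with Cited2 as a continuous term, a trend in the prior variance and no covariate, over genes whose median reached 1 CPM. Permutation tests are two-sided with 100000 permutations. Principal components used rank-normalised levels of all 20190 genes detected in at least 1 eye. The 10 named genes with the largest r in each direction among those called (8 were called lower), the listed genes that could be named and the genes within 0.5 Mb were named by rule, except 1 listed gene that is not reported here. Cited2, the split at ENSRNOG00000047175 and the gene lists were chosen with earlier results of these data known. Alternatives varied the scaling, pseudocount, filter, covariates and eyes. Other steps used Python 3.11.15, mainly pandas 2.3.3 and scipy 1.17.1. The fit was tested on simulated data. Eyes come from different rats, whose relatedness was not modelled.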

Additional observations from a re-analysis of the deposited data

How the results depend on the processing

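Counts of genes that rose and fell with Cited2 were 791 and 192. The number that fell was 868 with median-of-ratios scaling and 436 with scaling that leaves out mitochondrial genome genes and the 10 highest genes, and, in alternatives chosen after seeing the data, 885 with scaling that leaves out the 48 genes at least 8-fold lower in the 3 eyes and 1166 with median-of-ratios scaling in the 48 eyes. Both counts were smaller with the split at ENSRNOG00000047175 as a covariate (271 and 99), without the 3 eyes (353 and 123) and without the 2 eyes most extreme in Cited2 (373 and 67), and both were 0 with 5 or 20 components as covariates (limma, with 649 and 661 genes at an unadjusted p under 0.05), in the 39 eyes of the main tag prefix (1456) and in the 40 eyes that kept their label (2142). Leaving out 1 eye at a time gave 349 to 1010 and 72 to 257. On the values as deposited, which are not scaled for depth, 12604 rose and 1 fell, 3 of the 4 neighbouring genes and 20 of the 25 listed genes were called, the SD of Cited2 was 0.46 with 33.5% of the 200 genes nearest in level below it, and r with ENSRNOG00000047175 in the 48 eyes was 0.60 (permutation p = 4e-05). Of the 3 listed genes called, 0 were called with median-of-ratios scaling, with scaling that leaves out mitochondrial genome and the 10 highest genes, with either set of components or the split as covariate, without the 3 eyes, without the 2 extreme eyes, in the 39 eyes and in the 40 eyes, and 1 listed gene was called with no filter on level and in both alternatives chosen after seeing the data. The difference of Cited2 between the 3 eyes and the 48, 0.33, was 0.10 with median-of-ratios scaling and 0.11 with scaling that leaves out the 48 genes.

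On unscaled values the r of every named gene that fell turned positive: Fads1 0.57, Sfrp1 0.49, Mapk10 0.59, Ncoa7 0.58, Rap1gds1 0.60, Mboat1 0.54, Ndrg1 0.58, Sh3bgr 0.35, ENSRNOG00000009176 0.52 and ENSRNOG00000013707 0.52. With 20 components as covariates r changed sign for Tnip1 (-0.060), Sfrp1 (0.084), Ndrg1 (0.018), Sh3bgr (0.11), ENSRNOG00000009176 (0.020) and Elf3 (-0.49), and with 5 for Elf3 (-0.44). Apart from Elf3 these were at most 0.11 in size, and no gene was called with either set of components. With median-of-ratios scaling in the 48 eyes r changed sign for Ndrg1 (0.014) and Sh3bgr (0.076), neither of them called there (limma adjusted p = 0.962 and 0.757). The cause of these changes was not tested. No paired analysis was possible because all eyes form 1 group.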

Other observations

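Of the 791 genes that rose with Cited2, 17.1% lie on chromosome 1, the chromosome of Cited2, against 12.5% of all 13843 genes tested, and of the 192 that fell, 8.33% do. In the 48 eyes the shares were 18.1% of 353 and 7.32% of 123, and with median-of-ratios scaling 18.7% of 701 and 9.68% of 868. These shares were looked at after the data were seen, no test was made, and genes are not independent of each other.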
